A study of Drosophila melanogaster with 12 samples.

Results

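The 92 cytoplasmic ribosomal protein genes were followed through DamID peaks of Scalloped (Sd) and Nerfin-1, open chromatin and RNA of the larval central nervous system. They are the genes whose FlyBase symbol begins with RpL, RpS or RpLP followed by a digit, among 13922 protein-coding genes on the 6 chromosome arms used. By name, 50 belong to the large subunit, 38 to the small subunit and 4 to the stalk of the large subunit. The genes counted as stalk genes by name are RpLP0, RpLP1, RpLP2 and RpLP0-like. No measured value was used to choose them. For 87 genes the identifier could be looked up in the deposited lists, whereas RpS10b, RpL27A, RpL31, RpL19 and RpS12 now carry newer identifiers and were followed by position only.

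The ribosome translates every messenger RNA, and most of its proteins are present in 1 copy per particle. In Drosophila most of these proteins are made from a single highly transcribed gene, and loss of 1 copy of many of them gives the Minute phenotype of slow development and short bristles. Several fly genes have a second copy, often used in the germ line. Introns of ribosomal protein genes often hold the genes of small nucleolar RNAs (snoRNAs), which guide the chemical modification of ribosomal RNA. Sd is the fly TEAD-family DNA-binding protein of the Hippo pathway, which controls growth, and Nerfin-1 is a zinc-finger protein of young neurons.

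All samples came from larvae at the wandering stage of the third instar. DamID is the tethering of a bacterial adenine methylase (Dam) to a protein, so that GATC sites near the protein are marked. There were 2 samples with Dam-Sd, 2 with Dam-Nerfin-1 and 2 with Dam alone. Each of these animals carried tubGal80TS, GMR31H08-Gal4 and UAS-GFP, and a pUAST-LT3 transgene at attP2 that encoded Dam-Sd, Dam-Nerfin-1 or Dam alone. Eggs were laid at 25°C, kept at 18°C for 4 days and shifted to 29°C for 24 hours before dissection, since Gal80TS blocks Gal4 in the cold. The labels do not say which cells GMR31H08-Gal4 marks. ATAC-seq (3 samples) and RNA-seq (3 samples) were made from GFP-positive cells sorted from animals that carried a nerfin-1 reporter, P[nerfin-1.GFP-NLS.SV-40], in the line labelled iA and were reared at 25°C. Sorts of different days were pooled into the 3 RNA samples, so replicate spread is that between pools.

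The DamID and ATAC data were 1 peak list each, with no score and no value per sample, and the RNA data were read counts of 5135 genes that the authors kept as expressed. The libraries are called S1, S2 and S3 and hold 43555895, 44657928 and 57468071 counts over these genes. RNA levels are given as counts scaled to a total of 1000000 per library (CPM). All 6 neuronal marker genes examined were listed (elav, nSyb, brp, fne, Syt1 and nerfin-1), with a summed level of 9046 (S1), 8594 (S2) and 8085 CPM (S3). Of the neuroblast markers dpn, mira, ase and wor, 1 of 4 was listed, ase, at 31.6 (S1), 58.2 (S2) and 52.6 CPM (S3). None of the 4 glial, 3 hemocyte, 3 muscle and 3 fat body markers was listed. Because each group holds 1 peak list or 1 set of RNA libraries, no test between groups was possible, and the values below are descriptions.

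The first question was how many ribosomal protein genes lay at Sd and Nerfin-1 peaks. In the pairing of peaks with genes that the authors deposited, 26 of 87 genes had a Sd peak (29.9%), against 28.6% of all protein-coding genes that could be looked up. A Nerfin-1 peak was paired with 26 of 87 (29.9%), against 25.8% of all. Both kinds of peak were paired with 23 genes (26.4%), against 21.4% of all. These shares lie near those of all genes, and they lie below the 36.3% of genes with both peaks among the 4938 protein-coding genes listed in the RNA table.

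Genes with both peaks by this pairing included 12 of 36 small-subunit genes (33.3%) and 11 of 47 large-subunit genes (23.4%). The small-subunit genes included RpS3, RpS5a, RpS10a, RpS13, RpS14a, RpS15Aa, RpS16, RpS19b, RpS28b and RpS29. The large-subunit genes were RpL4, RpL7-like, RpL8, RpL9, RpL13, RpL23, RpL29, RpL30, RpL35A, RpL38 and RpL39. Only a Sd peak was paired with 3 of 87 genes (3.45%, against 7.19% of all), the small-subunit genes RpS14b, RpS18 and RpS24. Only a Nerfin-1 peak was paired with 3 of 87 (3.45%, against 4.44% of all), the large-subunit genes RpL13A, RpL27 and RpL40. RpL40 encodes a ribosomal protein fused to ubiquitin. The other ubiquitin fusion gene, RpS27A, had neither peak. The genes counted as stalk genes by name had neither peak in 4 of 4 cases, the state of 67.0% of all genes. Among them RpLP0, RpLP1 and RpLP2 encode the stalk proteins, which recruit translation factors to the ribosome.

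Counting by position gave more genes and a wider distance from all genes. Within the gene and 1 kb around it, 47 of 92 genes had a Sd peak (51.1%), against 35.6% of all protein-coding genes and 56.5% of listed ones. A Nerfin-1 peak was found at 42 (45.7%), against 32.9% of all and 51.0% of listed ones. Both were present at 37 genes (40.2%), against 27.7% of all and 45.9% of the listed genes. The subunits differed in the same direction as before, with both peaks at 21 of 38 small-subunit genes (55.3%) and 16 of 50 large-subunit genes (32.0%). Sd alone was found at 10 genes (10.9%, against 7.92% of all), 5 of the large and 5 of the small subunit. Nerfin-1 alone was found at 5 (5.43%, against 5.24% of all), the large-subunit genes RpL10Ab, RpL13A, RpL27, RpL32 and RpL40. The 4 genes counted as stalk genes again had no peak, as had 59.1% of all genes. In the gene itself, 37 genes had a Sd peak (40.2%, against 27.5% of all and 47.2% of listed genes). A Nerfin-1 peak lay in 30 (32.6%, against 25.5% of all and 42.6% of listed genes). No test was made of these differences.

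**Figure D1:**
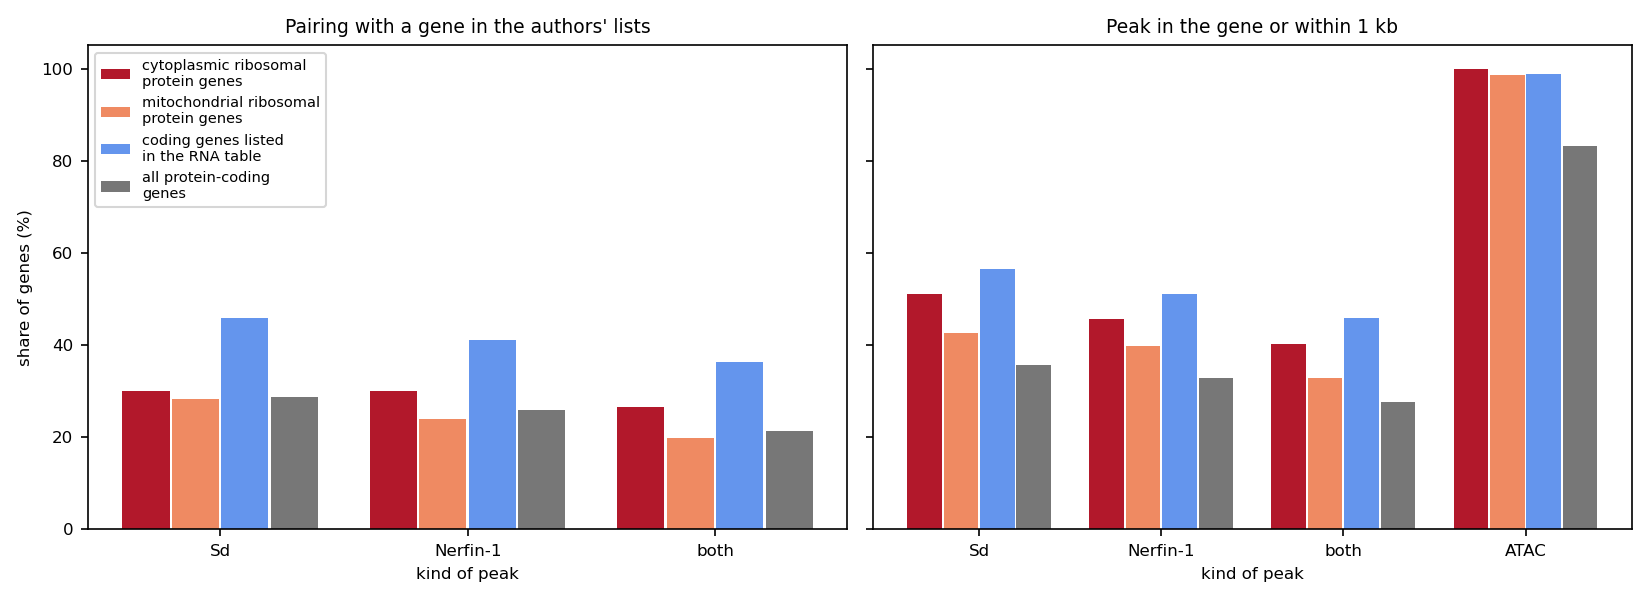
Share of genes (%) with a Sd peak, a Nerfin-1 peak or both by the authors' pairing (left) and within the gene and 1 kb around it (right, with ATAC peaks), for the 92 cytoplasmic ribosomal protein genes, 73 mitochondrial ribosomal protein genes, protein-coding genes listed in the RNA table and all protein-coding genes. The cytoplasmic ribosomal bars for both peaks stand at 26.4% and 40.2%, between those of all genes (21.4% and 27.7%) and those of listed genes (36.3% and 45.9%).

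The genes of the mitochondrial ribosome, which have the same task in another compartment, offer a comparison. Both peaks were within 1 kb of 37 of 92 cytoplasmic genes (40.2%) and 24 of 73 mitochondrial genes (32.9%). By the authors' pairing both were present at 26.4% of cytoplasmic and 19.7% of mitochondrial genes. Among translation factors, both peaks lay within 1 kb of 10 of 16 initiation factor genes and 6 of 7 elongation factor genes. The share was 27.7% of all genes and 45.9% of listed genes. The median span was 4122 bp for initiation and 1944 bp for elongation factor genes, against 2163 bp for all. By the authors' pairing both were present at 5 of 16 and 2 of 5 of these, against 21.4% of all and 36.3% of listed genes. Among ribosome assembly genes 7 of 12 had both within 1 kb, yet 1 of 12 by the pairing. Of the 2 cytoplasmic ribosomal genes outside the symbol rule, Rack1 had both peaks within 1 kb and sta had a Nerfin-1 peak alone.

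Most of the paired peaks were common to both proteins. Many were also paired with at least 1 other gene, 14 of 26 for Sd and 15 of 26 for Nerfin-1. The 26 Sd peaks paired with ribosomal protein genes had a median length of 1348 bp, against 1139.5 bp over the whole Sd list, and the 26 Nerfin-1 peaks one of 1239 bp, against 1146 bp. Of each set, 23 overlapped a peak of the other protein (88.5%, against 66.6% of all Sd and 75.2% of all Nerfin-1 peaks), and 13 had identical boundaries in both lists. Peak boundaries in DamID fall on GATC sites, and both proteins were profiled beside the same Dam-only samples. In each set 24 of 26 overlapped an ATAC peak (92.3%, against 76.8% and 74.7%). Counted by position within 1 kb, the Sd set lay nearer to its whole list. Open chromatin was then met by 43 of 55 (78.2%), and the Nerfin-1 list by 41 of 55 (74.5%). The Nerfin-1 set counted this way met open chromatin in 41 of 47 cases (87.2%). It met the Sd list in 41 of 47 cases as well.

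RpL23 and RpS28b were the genes with the largest share under a Sd peak. RpL23 (FBgn0010078, 2R, 22854383 to 22855694, dm6) lay wholly inside a Sd peak of 1769 bp and a Nerfin-1 peak of 1395 bp. RpS28b (FBgn0030136, X, 9554623 to 9555661) was covered to 92.3% by a Sd peak of 1759 bp and to 72.6% by a Nerfin-1 peak of 754 bp that began at the same base. RpS3, whose product also repairs DNA, had 1 peak of 1269 bp with the same ends in both lists, which covered 32.7% of the gene. Genes with peaks of both proteins wholly inside them included RpL38, RpS6, RpS7, RpS15Aa, RpS16 and RpS29. The peak inside RpL38, the smallest of these at 213 bp, had the same ends in both lists.

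The longest Sd peaks at these genes were those near RpL23A (4224 bp), RpS13 (3664 bp), RpL8 (3514 bp), RpL13 (3410 bp) and RpS9 (3222 bp). The longest Nerfin-1 peaks were those near RpL23A (3667 bp), RpL8 (3514 bp), RpS28a (2653 bp), RpS9 (2587 bp) and RpS19b (2505 bp). The long peak of 3514 bp at RpL8 began inside the gene, had the same ends in both lists and was paired by the authors with dos, not with RpL8. The peaks paired with RpL13 lay 1958 bp from the gene. RpL13 therefore counted as having both peaks by the pairing and neither within 1 kb.

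**Figure D2:**
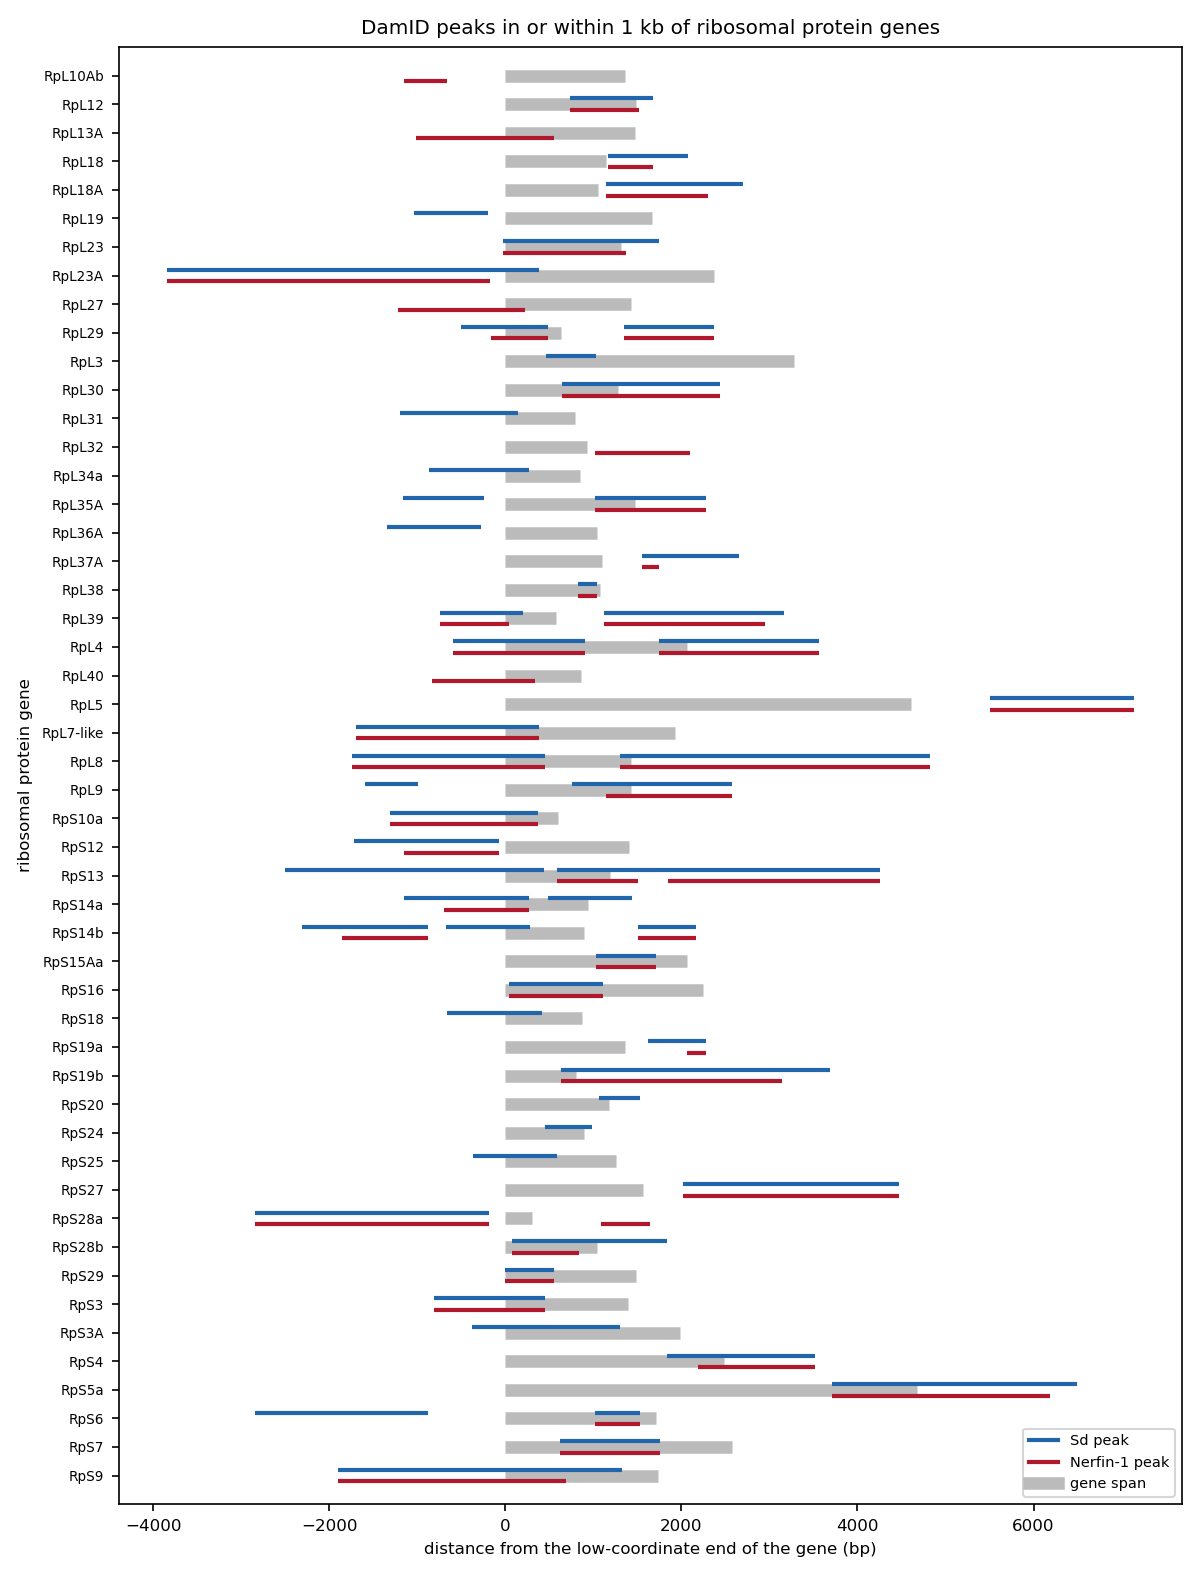
DamID peaks in or within 1 kb of ribosomal protein genes, drawn as distance (bp) from the low-coordinate end of each gene, with gene spans in grey, Sd peaks in blue and Nerfin-1 peaks in red. Both kinds of peak are drawn at 35 genes, with the same ends at RpL8 and RpS3, whereas 10 genes carry Sd alone and 5 carry Nerfin-1 alone.

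Several peaks inside ribosomal protein genes were paired with snoRNA genes. At 11 genes that could be looked up a Sd peak overlapped the gene without being paired with it, and at 7 of these the peak had been paired with a snoRNA gene. At RpL3, RpS3A, RpS6, RpS7 and RpS20 it was paired with snoRNA genes alone. A Nerfin-1 peak overlapped 5 genes without being paired with them, 2 of these, RpS6 and RpS7, with snoRNA genes alone. RpS6, the target of the growth kinase S6k, thus had a peak of 515 bp inside the gene in both lists and no pairing of its own. RpS7 holds 7 snoRNA genes, and its peak of 1137 bp, identical in both lists, was paired with 6 of them.

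Of the 92 genes, 28 hold at least 1 snoRNA gene (30.4%), against 0.69% of all protein-coding genes, and together they hold 74 of 269 annotated snoRNA genes (27.5%). RpS5a holds the most, 14. Both peaks lay within 1 kb of 13 of these 28 host genes (46.4%) and of 24 of the other 64 (37.5%). The host genes were longer, with a median span of 1888 bp against 1126 bp. The part of span in this difference was not tested.

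RpS3A, on chromosome 4 (FBgn0017545, 65225 to 67207), is the only ribosomal protein gene of that small, largely heterochromatic chromosome. A Sd peak of 1689 bp covered 66.0% of it and was paired with snoRNA:CD-24 alone. No Nerfin-1 peak lay within 1 kb. RpS14a and RpS14b, copies side by side on the X chromosome, shared their peaks in part. A Sd peak of 957 bp bridged both genes and was paired with RpS14b, while the overlapping Sd and Nerfin-1 peaks at the far end of RpS14a were paired with RpS14a and Dhdds. RpL12 and RpL39 overlap each other, and the 1 peak of each protein at their junction was paired with RpL39.

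Open chromatin was next compared, in sorted cells of another line and rearing temperature than those of the DamID samples. An ATAC peak lay in the gene or within 1 kb at all 92 genes (100%), against 83.2% of all protein-coding genes and 98.9% of listed genes. In the gene itself 86 of 92 had one (93.5%), against 65.8% of all and 96.7% of listed genes. The 6 without were RpL10Aa, RpL22-like, RpL39, RpS10a, RpS14a and RpS19b. Of these, RpL39, RpS10a, RpS14a and RpS19b had both DamID peaks. The 143 ATAC peaks at ribosomal protein genes had a median length of 697 bp, against 447 bp over the ATAC list. A single peak was found at 49 genes, 2 peaks at 35, 3 at 7 and 4 at 1, RpL8.

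The ATAC peaks sat at the ends of the genes. Exactly 1 end of the span was under an ATAC peak at 75 of 92 genes (81.5%), against 50.2% of all protein-coding genes and 83.0% of listed genes. Both ends were covered at 11 of 92 genes, against 5.11% of all and 9.5% of listed genes. Neither end was covered at 6 of 92, against 44.7% of all and 7.45% of listed genes. The strand was not given in the reference table, so which end is the start could not be said. In the 75 genes with 1 open end, a Sd peak covered that end in 16 (21.3%, against 23.2% of all such genes and 27.6% of listed ones). It covered the opposite end in 13 (17.3%, against 4.83% of all and 5.41% of listed ones). A Nerfin-1 peak covered the open end in 15 (20.0%, against 21.6% of all and 25.7% of listed ones) and the opposite end in 6 (8.0%, against 3.8% and 4.44%).

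The genes with a Sd peak at the opposite end were RpL4, RpL8, RpL12, RpL23, RpL23A, RpL34a, RpS3A, RpS4, RpS13, RpS14b, RpS20, RpS25 and RpS28b. At RpL4, RpL8, RpL23 and RpS13 the open end was also under a Sd peak. The ribosomal protein genes were short, with a median span of 1315 bp against 2163 bp for all protein-coding genes, and 25 of 92 overlap another protein-coding gene. The part of span and of neighbouring genes in these counts was not tested.

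The RNA of the sorted cells was rich in ribosomal protein transcripts. Of 87 genes that could be looked up, 79 were listed (90.8%), against 36.2% of all. Their median level was 845 CPM, with quartiles of 659 and 1082 CPM, against a median of 83.0 CPM over all listed genes. Together they took 6.40% (S1), 6.66% (S2) and 7.37% (S3) of the listed counts, a mean of 6.81% ± 0.505 (SD, n = 3). The genes with newer identifiers could not be looked up and are not in this share, whatever their level. In bulk RNA, fewer cells of a type and less RNA per cell cannot be told apart. Among the 5135 listed genes, 15 ribosomal protein genes ranked in the top 100 and 69 in the top 500.

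Small-subunit genes had a median of 863 CPM and large-subunit genes one of 827 CPM. The genes counted as stalk genes by name had one of 944 CPM, with RpLP0-like among them at 19.7 CPM. The cytoplasmic ribosomal genes outside the symbol rule had 1744 ± 135 CPM (sta) and 1163 ± 75.2 CPM (Rack1; SD, n = 3), both above the upper quartile of 1082 CPM. Mitochondrial ribosomal protein genes were far lower, with 68 of 71 listed at a median of 18.4 CPM. Initiation factor genes (16 of 16 listed) had a median of 363 CPM and elongation factor genes (5 of 5) one of 932 CPM. Ribosome assembly genes (10 of 12) had a median of 54.0 CPM. For RNA polymerase I, 2 of 5 genes were listed, Polr1C and Tif-IA.

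RpS5a, a small-subunit gene, had the highest level, with 1743 (S1), 1768 (S2) and 1939 CPM (S3). RpL4 followed with 1681 (S1), 1658 (S2) and 1862 CPM (S3), and RpL3 with 1565, 1631 and 1743 CPM in the same libraries. RpS5a was higher than RpL4 within each of the 3 libraries, although their ranges across libraries overlapped. RpS3A on chromosome 4 had 1286 (S1), 1325 (S2) and 1464 CPM (S3). The ubiquitin fusion genes were close to each other, with 936 ± 79.3 CPM for RpL40 and 912 ± 95.9 CPM for RpS27A (SD, n = 3).

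**Figure D3:**
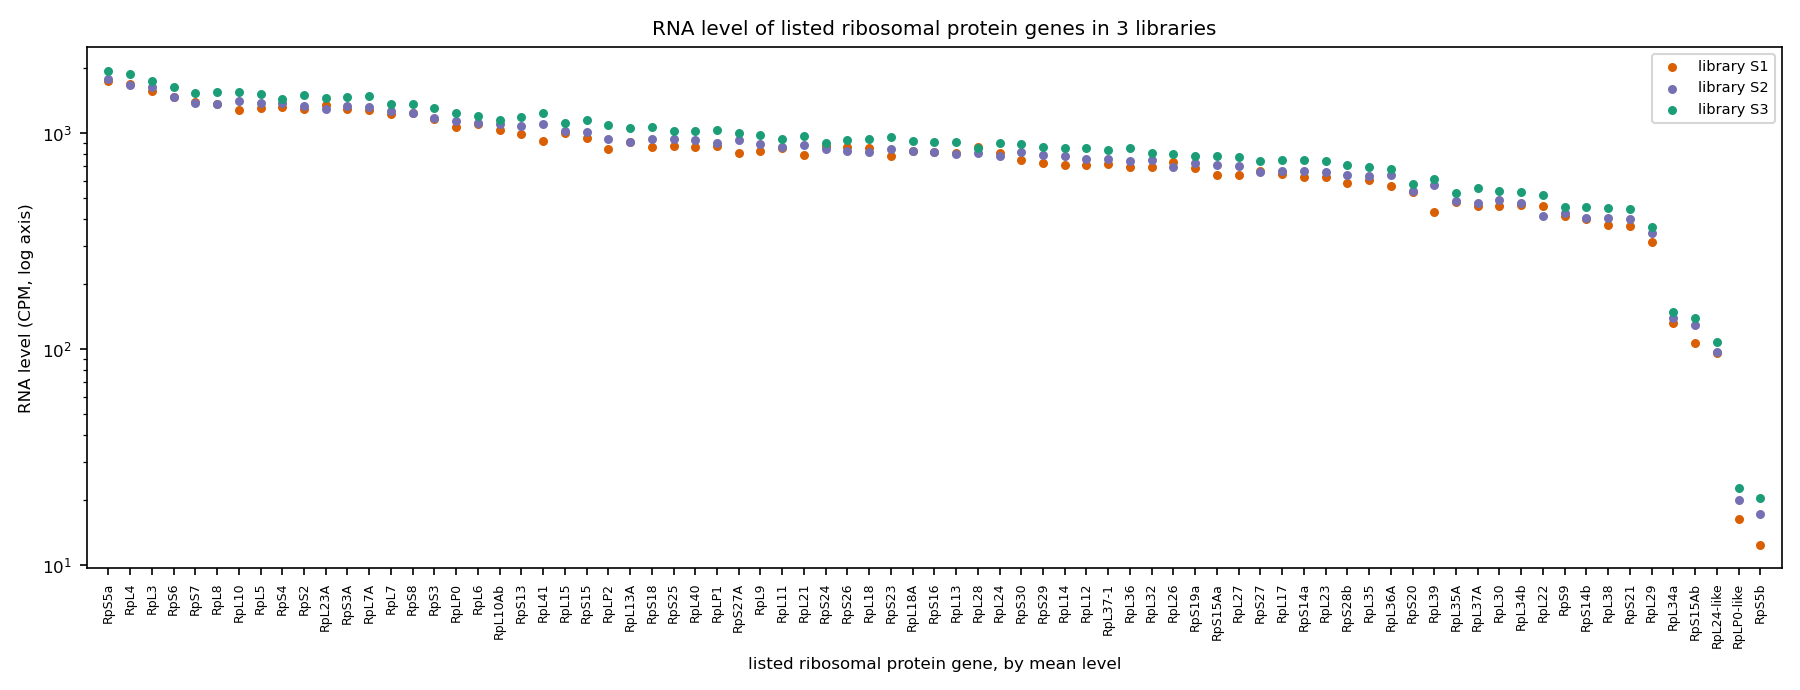
RNA level (CPM, log axis) of 77 listed ribosomal protein genes in libraries S1, S2 and S3, with genes in order of mean level and 1 point per library. Levels decline gradually from RpS5a to RpL29 (1817 to 341 CPM), and 5 genes, RpL34a, RpS15Ab, RpL24-like, RpLP0-like and RpS5b, lie apart below 200 CPM.

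Per kilobase of gene span, introns included, the median was 561 CPM, against 21.6 CPM for all listed protein-coding genes. The highest on this scale was RpL41, which encodes a very short basic peptide of the large subunit, at 2078 ± 310 CPM per kb (SD, n = 3). RpLP2, an acidic stalk protein gene, had 1582 ± 200 CPM per kb and RpL21 had 1148 ± 121 CPM per kb. RpS18, RpL40 and RpS2 had 1095 ± 119, 1085 ± 91.9 and 1067 ± 88.1 CPM per kb. These genes have short spans of 520 to 1288 bp, and the ranges of mean ± SD overlap from RpL21 to RpS2.

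The lowest levels per kilobase of span were those of RpS5b (14.8 ± 3.59 CPM per kb), RpLP0-like (18.3 ± 2.96), RpL24-like (119 ± 7.45), RpL34a (164 ± 9.47), RpS15Ab (172 ± 22.7) and RpL22 (180 ± 20.3). All but RpL22 are the gene with the lower level in a pair of duplicated or related genes. RpL22 has a long span of 2571 bp and a level of 462 ± 52.2 CPM (SD, n = 3).

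Duplicated or related genes had unequal RNA levels. In each of 12 groups of such genes that could be looked up in full, 1 had the highest level or was the only one listed. It is called the main copy here and the others the lesser copies. These names describe levels only. RpLP0-like and RpL24-like are related to yeast assembly factors and need not be copies in function. Of the lesser copies, with RpS10a among them, 8 were not listed: RpL7-like, RpL10Aa, RpL22-like, RpL37-2, RpS10a, RpS19b, RpS28a and RpS28-like. A further 5 were listed below 200 CPM, whereas the other 74 listed genes were at or above 300 CPM. Not being listed is the authors' call under a rule not given here, and does not show that the count was 0.

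RpS5b, the copy known from the female germ line, made up 0.907% ± 0.177 of the RpS5a and RpS5b level (SD, n = 3). It had 12.4 (S1), 17.3 (S2) and 20.5 CPM (S3), from 541, 772 and 1177 counts. RpLP0-like, whose yeast counterpart acts in ribosome assembly, made up 1.68% ± 0.143 of the pair with RpLP0. RpL24-like, related to a yeast assembly factor, made up 10.8% ± 0.196 of the pair with RpL24. These genes kept a low share in every library.

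RpS15Ab made up 14.9% ± 0.555 of the pair with RpS15Aa, and RpL34a made up 22.1% ± 0.490 of the pair with RpL34b. RpL34a had 132 (S1), 139 (S2) and 148 CPM (S3), and RpL34b had 466, 474 and 534 CPM. The tandem copies RpS14a and RpS14b were the most even, at 61.8% and 38.2% ± 0.662. RpS14a had 626 (S1), 662 (S2) and 749 CPM (S3), and RpS14b had 400, 404 and 454 CPM. Their sequences are near identical, so the counting could have split reads between them and these shares are uncertain.

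**Figure D4:**
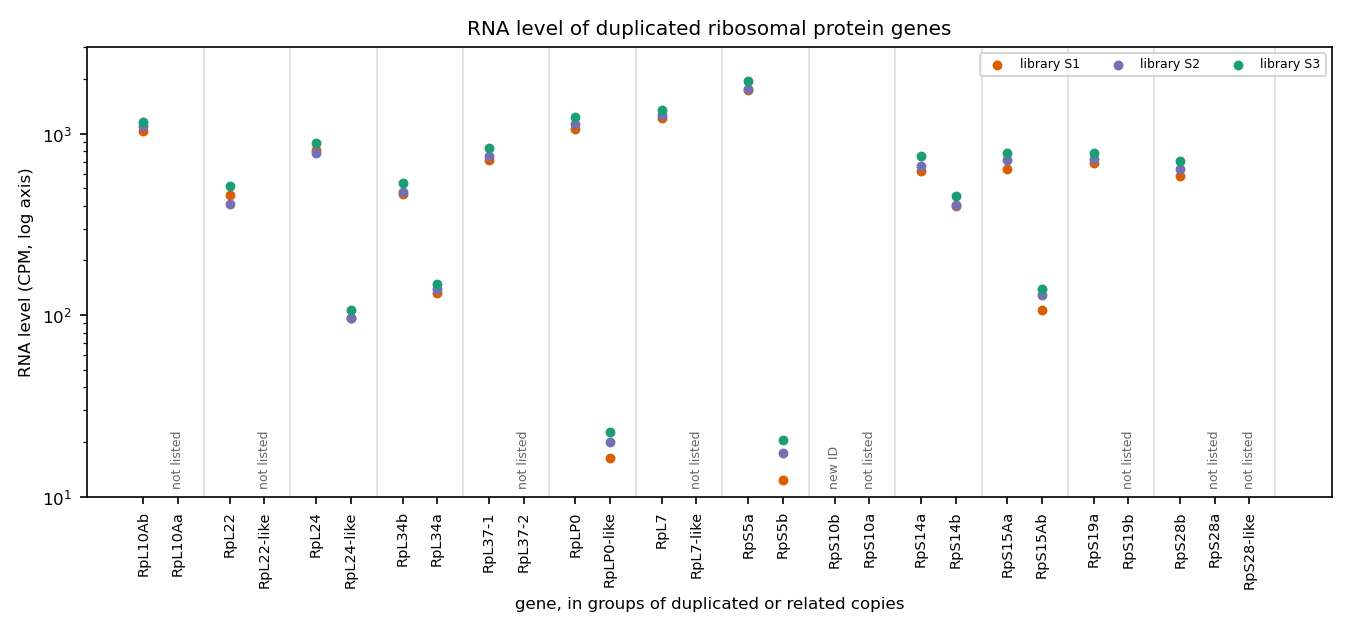
RNA level (CPM, log axis) of duplicated or related ribosomal protein genes in libraries S1, S2 and S3, with the main copy left of the lesser copies in each group. Lesser copies are either not listed or lie below 200 CPM, except RpS14b at 419 CPM, and RpS10b could not be looked up because of its newer identifier.

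DamID peaks were found at copies of both kinds. By the authors' pairing both peaks were present at RpS10a, RpS19b and RpL7-like, which were not listed in the RNA table. The peaks at RpS19b were also paired with CG5854, and those at RpL7-like with CG34164. RpS10a lies inside tau, which encodes a microtubule-binding protein, and its peak of 1676 bp in both lists was paired with RpS10a alone. In the pairs RpS5a and RpS5b, and RpS15Aa and RpS15Ab, both peaks were at the main copy and neither at the other. In the pairs RpL34b and RpL34a the lesser copy had a Sd peak within 1 kb, and the main copy none.

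Peaks and RNA levels were also set side by side, although DamID and RNA came from animals of different lines and rearing temperatures. Genes with both peaks by the authors' pairing had a median of 753 CPM (20 listed of 23), and genes with neither had one of 859 CPM (53 of 58). The quartiles were 618 and 1047 CPM with both peaks, and 687 and 1134 CPM with neither, so the classes overlapped. By position within 1 kb the medians were 783 CPM with both and 848 CPM with neither. The genes with a Sd peak alone by the pairing, RpS18, RpS24 and RpS14b, had 953, 870 and 419 CPM. The genes with a Nerfin-1 peak alone, RpL13A, RpL40 and RpL27, had 955, 936 and 705 CPM.

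Host genes of snoRNAs had a median of 1041 CPM (26 listed), and the other genes one of 772 CPM (53 listed). Levels were higher for longer spans across the listed genes (Spearman 0.48, n = 79 genes that share the libraries). Per kilobase of span the order was reversed, with a median of 554 CPM per kb for host genes and 620 CPM per kb for the others. CPM are not scaled to length. Transcript lengths were not available, and their part in these levels was not tested.

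The libraries differed slightly and in the same direction for most genes. In S1 the log2 level was below the mean of the other libraries for 78 of 79 ribosomal protein genes, against 76.5% of all listed genes, with a median of -0.14, against -0.08 for all. RpL28 had a difference of 0.06. This count depended on scaling, since 61 of 79 lay below 0 with TMM scaling and 59 of 79 with DESeq2 size factors, and the median became -0.06 and -0.05. In S3 the level was above that of the others for 79 of 79, against 79.3% of all, with a median of 0.18, against 0.10 for all. With TMM and DESeq2 scaling 77 and 76 of 79 lay above 0, with medians of 0.09 and 0.08. In S2 it was below for 64 of 79, against 57.1% of all, and above for 15, against 42.9%, with a median of -0.04, against -0.01, and 55 of 79 lay below 0 with either scaling. Relative to the median of all listed genes, 60 of 79 lay lower in S1 and 76 of 79 lay higher in S3.

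**Figure D5:**
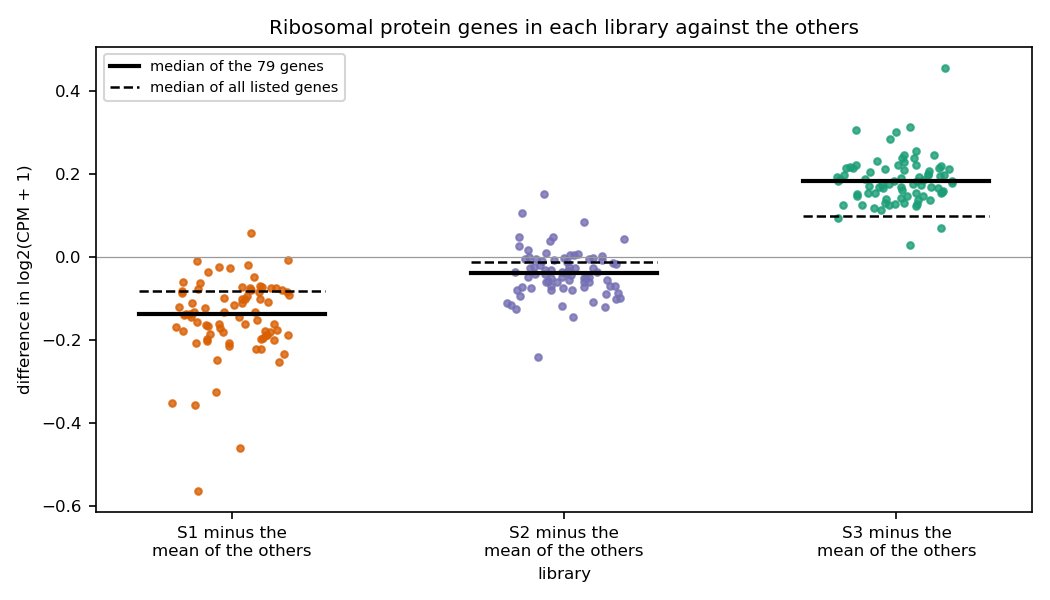
Difference in log2(CPM + 1) of each of the 79 listed ribosomal protein genes between a library and the mean of the others, with the median of these genes (solid line) and of all 5135 genes of the table (dashed line). The ribosomal protein genes shift with all genes and somewhat further, to -0.14 against -0.08 in S1 and 0.18 against 0.10 in S3.

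A step of this size is small beside the range of the genes. The median SD of log2 levels over the 3 libraries was 0.11 for ribosomal protein genes, against 0.08 for all listed genes. The largest were those of RpS5b (0.34), RpL39 (0.27) and RpLP0-like (0.23), and the smallest those of RpS24 (0.04), RpL28 (0.05) and RpS4 (0.07). RpL39 had 430 (S1), 571 (S2) and 613 CPM (S3), with S1 below both others. RpS24 had 866, 846 and 898 CPM in the same libraries and differed little between them.

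Other values moved with the same libraries. The library difference varied with gene span. In S1 the Spearman correlation with span was 0.44 among the ribosomal protein genes (n = 79) and 0.47 among all listed protein-coding genes (n = 4938). In S3 it was -0.35 among the ribosomal protein genes and -0.65 among all. All points share the same 3 libraries. The 19 shortest ribosomal protein genes, of up to 1027 bp, had a median of -0.17 in S1 and the 19 longest, of at least 1792 bp, one of -0.10. Mitochondrial ribosomal protein genes, with a median span of 909 bp, had a median of -0.12 in S1 (65 of 68 below 0) and ribosome assembly genes one of -0.21 (10 of 10). The summed level of the neuronal markers was highest in S1 and lowest in S3, and ase was lowest in S1. The neuronal markers did not move together. In S1, 5 lay above the mean of the other libraries and 1, fne, lay below it. The level of fne was 2200 (S1), 2547 (S2) and 2479 CPM (S3). That of nerfin-1, whose reporter was used for sorting, was 2486 (S1), 1952 (S2) and 1773 CPM (S3). The highest level of elav was in S2. The part of span, cell makeup and pooling in the library differences was not tested.

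Regulators of ribosomal protein genes and of growth were the last group examined. Both peaks were paired with 7 of 10 that could be looked up, against 21.4% of all genes and 36.3% of listed genes: M1BP, Max, Mnt, Myc, Trf2, Xrp1 and mTor. The regulators are long, with a median span of 8718 bp against 2163 bp for all genes. M1BP binds a promoter motif of many housekeeping genes and Trf2 is a TBP-related factor that acts at ribosomal protein promoters in flies. Dref, raptor and Thor had neither peak. Of the 10 regulators, 8 were listed in the RNA table. Trf2 had 375 ± 27.1 CPM, mTor 237 ± 3.50 CPM, Xrp1 187 ± 5.85 CPM and M1BP 88.9 ± 6.51 CPM (SD, n = 3). Myc and Thor were not listed.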

How the data were processed

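The submitters' processing notes name Subread, featureCounts, edgeR, bedtools, Bowtie2 and MACS2 and the build dm6. Tools per file, settings, strand use in counting, and how replicates and Dam-only samples entered the calls are not given in the labels or file headers. The RNA table holds the raw read counts that the authors deposited for genes kept as expressed. The deposited peak lists hold interval boundaries, and the DamID lists pair each interval with gene identifiers. No depth is known for DamID or ATAC.

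Gene spans and symbols came from a RefSeq table of the same release, with no strand, exons or sequence. Of 8165 identifiers in the files, 7998 matched a symbol, and 298 protein-coding genes carry newer identifiers. Overlap meant at least 1 bp. The authors' pairing was the main assignment for DamID, and the gene with 1 kb on either side for ATAC. CPM are counts scaled to 1000000 listed counts, with 1 added before log2. Lowest counts at the genes were 541, so counting error is small beside the spread between libraries, which differed well beyond sampling noise (chi-square per degree of freedom of 61.4 to 194 between pairs). Per-length levels use the span instead of the coding length. Interval counting and library differences were tested on simulated data. Python 3.11.15, pandas 2.3.3, numpy 2.4.6, edgeR 4.0.16 and DESeq2 1.42.0 were used, edgeR and DESeq2 for alternative scaling only.

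The genes, lists and comparisons were chosen with earlier results of these data known, and the open-end counts after seeing the values, so no set test was run. Genes named with full values were the 6 highest and 6 lowest per kilobase, copies, ubiquitin fusions, stalk genes, RpS3A, genes with a pairing, the 5 longest peaks per list and the 3 largest and smallest spreads. Values of 2 genes are not reported here individually, and both remain in the counts and medians.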

Additional observations from a re-analysis of the deposited data

How the results depend on the processing

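Within 1 kb of the gene, 47 genes had a Sd peak, 42 a Nerfin-1 peak and 37 both, against 26, 26 and 23 by the authors' pairing. With peaks of at least 1000 bp only, 16 had a Nerfin-1 peak and 13 had both, with fewer peaks counted. The median difference of a library from the others changed with scaling by TMM and by DESeq2 size factors, which take out the shift of all genes. It became 0.0893 and 0.0838 in S3 (0.182 before), -0.058 and -0.0534 in S1 (-0.138 before) and -0.0248 and -0.0238 in S2 (-0.0379 before). Leaving out 1 library at a time gave a median level of 9.67 to 9.75 (log2) and a share of counts of 6.53% to 7.02%. The counts for ATAC peaks and for listing kept within 1.5 times of their values under the alternatives run. A window around the gene start was not run. No paired analysis was possible because each kind of data has 1 group with values. The peak lists carry no score, replicate value or depth, and a gene without a peak was not shown to be unbound.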
